A study of Mus musculus with 36 samples.

Results

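The mRNAs of 31 genes of cholesterol and fatty acid synthesis were followed in C2C12 cells, an established mouse myoblast line, across 6 culture groups. The genes were taken as a list of names, matched to the gene symbols of the count files, and make up 31 of the 49315 genes in those files. They comprise 5 regulators (Srebf1, Srebf2, Scap, Insig1, Insig2), 7 enzymes that lead from acetyl-CoA to farnesyl diphosphate, 10 that lead from there to cholesterol, the sterol transfer protein gene Stard4, and 8 fatty acid genes. Proliferating myoblasts were grown on coverslips in sealed experiment units, rinsed, and fixed with RNAlater in the unit. Space groups were kept on the International Space Station in an incubator set at 37 °C, and the last fluidic steps ran at day 9 after launch. The ground run was made afterwards in the same type of hardware, so what space did and what the separate run did cannot be told apart. The 6 groups crossed 3 regimes (in space without gravity, in space with gravity, on land) with the absence or presence of nanoceria (serum-coated cerium oxide particles, 100 µg/ml in the medium reservoir), and each held 3 libraries of polyadenylated RNA. The terms with and without gravity are the labels' own. All groups share this line, the hardware and the fixation, and each library came from 1 of 3 units of its class. The labels do not say that the units were separate cultures, so p-values measure the spread between these libraries.

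Cholesterol is built from acetyl-CoA through mevalonate, isoprenoids, squalene and lanosterol, and fatty acids from the same precursor through malonyl-CoA. SREBP-2 (gene Srebf2) mainly drives the sterol genes and SREBP-1 (Srebf1) mainly the fatty acid genes. Both are held in the endoplasmic reticulum with SCAP, retained there by the INSIG proteins when sterols are plentiful, and carried by SCAP to the Golgi for cleavage when sterols fall. Dividing myoblasts need these lipids for new membranes.

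Of the 18 libraries, 17 held 2986628 to 11378178 counts. The remaining library, space with gravity plus nanoceria replicate 3, held 23858 counts, of which 22 fell on 10 of the 31 genes, and a count of 0 there allows up to 35.7 CPM (counts per 1e+06, scaled by TMM). Its values are therefore kept out of the ranges below, but it stays in the fits unless stated. Land nanoceria replicate 3 also stood apart: its median correlation over genes with the other 16 deeper libraries was 0.668, against 0.760 to 0.859 for the others. A small group of 6 genes took a large share of counts: Lars2, Gm23935, Gm15564, Gm24270, Gm24187 and Gm25911. They took 24.5% to 54.4% of counts in the 5 deeper space with gravity libraries. The share was 40.7% to 70.3% in space without gravity and 49.6% to 76.3% on land, so it moved with the regimes. Differentiated muscle markers summed to 0.659 to 10.7 CPM in space with gravity, 1.40 to 17.8 without and 3.32 to 87.5 on land. The highest land value came from untreated replicate 1 alone. Acta1 had 35.4 and Mymk 17.3 CPM there, against at most 7.61 and 1.28 in the other land libraries. The part of these markers in the results was not tested. Among myoblast markers, Myf5 (20.0 to 163 CPM) and Des (29.9 to 433 CPM) were detected in all 17, while Myod1 was at 0 in 8 of 17.

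Promoters of 4 genes are shown. Srebf2, Scap and Acat2 were called in space with gravity against land, as was Scd1, for which no promoter start was available. Hmgcs1, the gene of HMG-CoA synthase, was the sole member whose window held the sterol regulatory element letters searched. Each is the 250 bases before a RefSeq start, GRCm38.p6, read 5′ to 3′ on the gene's strand. Capitals mark the sterol regulatory element TCACNCCAC, the CCAAT box and the GC box GGGCGG, on either strand, so that CCAAT may read as ATTGG and GGGCGG as CCGCCC.
Srebf2: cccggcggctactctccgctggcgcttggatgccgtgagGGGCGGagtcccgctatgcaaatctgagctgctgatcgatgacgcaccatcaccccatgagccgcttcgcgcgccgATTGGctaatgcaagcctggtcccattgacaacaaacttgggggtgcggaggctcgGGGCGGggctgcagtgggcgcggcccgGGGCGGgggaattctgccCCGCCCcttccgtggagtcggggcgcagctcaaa
Scap: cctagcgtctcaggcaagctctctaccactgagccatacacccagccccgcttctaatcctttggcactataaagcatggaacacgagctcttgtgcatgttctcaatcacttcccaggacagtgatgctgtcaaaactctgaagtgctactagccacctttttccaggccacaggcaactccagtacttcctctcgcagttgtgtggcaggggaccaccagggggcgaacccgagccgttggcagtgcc
Acat2: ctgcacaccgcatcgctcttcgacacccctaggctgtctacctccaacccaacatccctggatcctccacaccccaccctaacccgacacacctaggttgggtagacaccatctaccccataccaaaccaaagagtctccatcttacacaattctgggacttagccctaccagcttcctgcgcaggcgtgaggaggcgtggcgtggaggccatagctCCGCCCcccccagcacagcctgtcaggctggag
Hmgcs1: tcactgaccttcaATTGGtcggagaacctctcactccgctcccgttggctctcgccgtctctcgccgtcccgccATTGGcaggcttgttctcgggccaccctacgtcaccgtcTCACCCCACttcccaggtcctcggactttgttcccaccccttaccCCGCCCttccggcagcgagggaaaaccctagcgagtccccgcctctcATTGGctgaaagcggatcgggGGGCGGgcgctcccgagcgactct
The Srebf2 window (chr15:82147019-82147268, plus strand) held 1 CCAAT box and 4 GC boxes. The Scap window (chr9:110333038-110333287, plus strand) is 1 of 2 starts in the table and held none of the 3 motifs; a GC box and an E-box were found at the other. The Acat2 window (chr17:12960726-12960975, minus strand) held 1 GC box. The Hmgcs1 window (chr13:119690101-119690350, plus strand) held 1 sterol regulatory element, whose first letter lies 137 bases before the start, 3 CCAAT boxes and 2 GC boxes. The table matched 24 of the 31 genes, all but Fdps, Fdft1, Sqle, Stard4, Scd1, Scd2 and Fads1. Over all starts of each gene, a CCAAT box was present for 18 of 24 (75%) against 37.5% of 27025 genes, and a GC box for 20 of 24 (83.3%) against 35.4%. The sterol regulatory element was present for 1 of 24 (4.17%) against 1.22%, and the E-box CACGTG for 5 of 24 (20.8%) against 6.86%. These are matches of letters in a window, not binding sites.

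Per length, the 31 genes spanned a wide range of levels. Sc5d, the sterol desaturase gene, was the highest, with a median of 61.0 CPM per kilobase over the 17 libraries. It was followed by Insig2 at 37.0, the stearoyl-CoA desaturase gene Scd2 at 28.2 and Hmgcs1 at 20.0. Srebf2 had 1.55, Srebf1 1.39 and Scap 1.87 on the same scale, and the lowest was Idi1, isopentenyl diphosphate isomerase, at 0.094. Sc5d alone held 35.6% of all counts on the 31 genes, Scd2 17.6% and Insig2 13.6%. Counts of 29 genes were high enough to be tested, among 11558 genes in all. Mvd (mevalonate diphosphate decarboxylase, 68 counts over all libraries) and Idi1 (60 counts) were not. The coefficient of biological variation had a median of 0.640 over the 29 genes and 0.591 over all genes tested, and was lowest for Scap (0.408) and highest for Acat2 (1.24).

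In space with gravity, 4 of the 29 tested genes fell against land and none rose, averaged over nanoceria (edgeR, adjusted p under 0.05). They were Srebf2, its partner Scap, Acat2 and the stearoyl-CoA desaturase gene Scd1. Over all genes tested, 14.0% passed, and 6.74% passed and fell, so the share of the 29 passing was close to that of all genes. With DESeq2 size factors 9 of the 29 passed, all lower, where 18.9% of all genes passed. The direction over all genes moved with the scaling: 834 rose and 779 fell with TMM, 628 rose and 1558 fell with DESeq2 size factors, whose median over all genes was −0.39. When the fit had a term for how much of a library the 6 dominant genes took, 0 of the 29 and 1 gene in all (0.00865%) passed. At an unadjusted p under 0.05 there were 11 of 29, all lower, where 31.9% of all genes passed and 16.1% passed and were lower. The median log2 difference was −0.94 over the 29 and −0.04 over all genes, with 21 of the 29 below 0. In bulk RNA, fewer cells of a type and less RNA per cell cannot be told apart.

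Srebf2 (chr15:82147266-82205376, plus strand) had 13.8, 10.7 and 13.8 CPM in untreated land libraries and 11.1, 11.8 and 32.5 with nanoceria. In space with gravity it had 4.32, 2.32 and 3.95 CPM untreated, and 4.36 and 1.59 with nanoceria. The 5 deeper libraries of space with gravity all lay below the 6 of land. The log2 fold change was −2.26 ± 0.51 (SE; edgeR adjusted p = 0.0114), with −1.85 among untreated and −2.67 among nanoceria libraries. The call held when each of the 18 libraries was left out in turn, with values of −2.70 to −1.89.

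Scap (chr9:110333288-110384950, plus strand) had 28.9, 29.1 and 17.1 CPM on untreated land and 29.6, 19.2 and 28.6 with nanoceria. In space with gravity it had 11.5, 10.5 and 12.7 CPM untreated, and 9.98 and 13.4 with nanoceria. Again the sides did not overlap, and Srebf2 and Scap were the 2 of 29 genes of which that held, where 7.82% of all genes tested did the same. Scap fell by 1.22 ± 0.37 on the log2 scale (edgeR adjusted p = 0.0369). That call was lost in 12 of 18 fits with a library left out, where edgeR adjusted p over all 18 ran from 0.0347 to 0.107 and the fold from −1.35 to −1.11. Scap shares 985 of its 7443 exon bases with 5830462I19Rik on the opposite strand, which had 66 counts against 1682 for Scap.

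**Figure D1:**
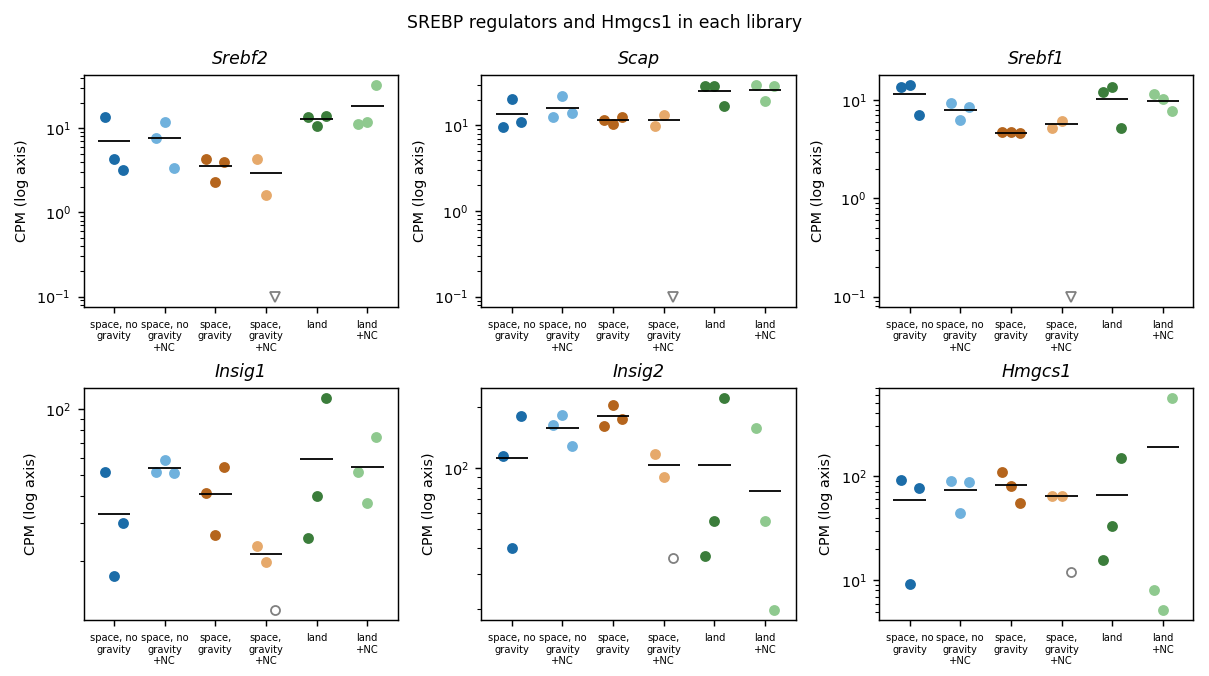
Points are single libraries of the 6 groups (NC, nanoceria) on a log CPM axis, lines are means without the smallest library, which is drawn as an open grey symbol (a triangle near the foot of the axis for a count of 0). Srebf2 and Scap of space with gravity lie below every land library, while Hmgcs1 on land runs from 5.21 to 558 CPM.

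Srebf1 stood at 4.71, 4.73 and 4.61 CPM in untreated space with gravity and at 5.23 and 6.22 with nanoceria. On land it had 12.2, 13.6 and 5.26 CPM untreated, and 11.5, 10.2 and 7.81 with nanoceria. The ranges overlapped through untreated land replicate 3, and the difference of −1.02 ± 0.37 did not pass (edgeR adjusted p = 0.0692). Insig1, which retains SCAP and is itself a sterol-responsive gene, had 41.3, 26.4, 54.5, 23.4 and 19.8 CPM in space with gravity. On land Insig1 had 25.6, 39.9 and 112 CPM untreated and 51.5, 36.9 and 74.5 with nanoceria, and its difference was −0.99 ± 0.42 (edgeR adjusted p = 0.113). Insig2, the other retention gene, had 162, 205, 176, 118 and 89.9 CPM in space with gravity. On land it had 36.7, 54.5 and 221 CPM untreated, and 158, 54.5 and 19.9 with nanoceria. Land held both the highest and the lowest Insig2 value of the 17, and the difference was +0.47 ± 0.54 (edgeR adjusted p = 0.583).

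Of the genes leading to farnesyl diphosphate, 1 of 5 tested passed. Acat2, the cytosolic acetoacetyl-CoA thiolase of the first step (chr17:12942890-12960747, minus strand), had 8.25, 1.20 and 3.46 CPM in untreated space with gravity and 4.43 and 3.35 with nanoceria. On land Acat2 had 3.65, 5.11 and 38.1 CPM untreated, and 0.370, 1.60 and 1109.6 with nanoceria. The ranges overlapped, and land nanoceria replicate 3 held 3409 of the 4090 Acat2 counts in the study. The fitted difference was −4.24 ± 1.34 (edgeR adjusted p = 0.0435), and without that library it was 0.00 (edgeR adjusted p = 1.00). Reads of the close copy Acat3 numbered 34 in all. Without the smallest library Acat2 did not pass (edgeR adjusted p = 0.0678), while Srebf2, Scap and Scd1 did.

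Hmgcs1 showed the same library at its top. It had 109, 80.3, 55.3, 64.0 and 64.6 CPM in space with gravity, against 15.9, 33.5 and 150 on untreated land and 8.14, 5.21 and 558 with nanoceria. Its difference was −0.79 ± 0.88 in all libraries, and its sign turned to +1.65 without land nanoceria replicate 3. Fdps, farnesyl diphosphate synthase, had 3.74, 1.46, 4.61, 1.03 and 2.55 CPM in space with gravity and 1.26 to 14.5 on land (−1.60 ± 0.57, edgeR adjusted p = 0.0649). Mevalonate kinase Mvk differed by −1.14 ± 0.53 and phosphomevalonate kinase Pmvk by +1.19 ± 0.75, and neither passed.

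From farnesyl diphosphate to cholesterol, 0 of 10 genes passed in edgeR at the adjusted threshold, and 0 at an unadjusted p under 0.05; DESeq2's test called 1, Fdft1, where it called 23.3% of all genes. Their differences ran from −1.47 (Nsdhl, a sterol dehydrogenase) to +0.87 (Sc5d), with 7 below 0. Squalene synthase Fdft1 differed by −0.94 ± 0.46, and squalene epoxidase Sqle by +0.70 ± 0.42. The lanosterol demethylase gene Cyp51 differed by −0.93 ± 0.62 and Msmo1, the methylsterol oxidase gene, by −0.45 ± 0.65. Fdft1 shares 767 of 2860 exon bases with Ctsb on the opposite strand, which had 14778 counts against 721. Cyp51 shares 166 of 4415 with Akap9, which had 4441 counts against 791. Srebf1 shares 109 of 5634 with Rai1 on the opposite strand, which had 1111 counts against 847. The strand setting of the counting is not given in the sources used here, so values of Fdft1, Cyp51 and Srebf1 are uncertain. Stard4, which carries sterols between membranes, had 145 counts in all and differed by −1.87 ± 0.85 (edgeR adjusted p = 0.139).

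Of the 8 fatty acid genes, 1 passed. Scd1, which makes monounsaturated fatty acids (chr19:44394451-44407709, minus strand), had 7.22, 2.06, 2.80, 3.33 and 3.03 CPM in space with gravity. On land it had 8.29, 5.88 and 54.2 CPM untreated, and 3.70, 3.81 and 41.3 with nanoceria. The ranges overlapped, with the replicate 3 libraries of both land groups far above the other 4. The difference was −2.44 ± 0.72 (edgeR adjusted p = 0.0333). Without untreated land replicate 3 it was −1.56 (edgeR adjusted p = 0.107), and without land nanoceria replicate 3 it was −1.37 (edgeR adjusted p = 0.150).

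Scd2, which encodes the same kind of desaturase as Scd1, had the opposite sign. It had 211, 223, 216, 232 and 143 CPM in space with gravity, 58.8, 41.7 and 107 on untreated land, and 48.9, 66.7 and 222 with nanoceria. The ranges overlapped through land nanoceria replicate 3, and the difference of +0.96 ± 0.50 did not pass (edgeR adjusted p = 0.197). Fatty acid synthase Fasn had 6.12, 7.31, 13.0, 5.94 and 16.1 CPM in space with gravity and 12.6 to 48.5 on land (−1.20 ± 0.44, edgeR adjusted p = 0.0718). The delta-5 desaturase gene Fads1 differed by −1.26 ± 0.46 (edgeR adjusted p = 0.0697). ATP citrate lyase Acly, acetyl-CoA carboxylase Acaca, the elongase Elovl6 and Fads2 ran from −1.61 to +0.99, with SE of 0.55 to 1.28.

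**Figure D2:**
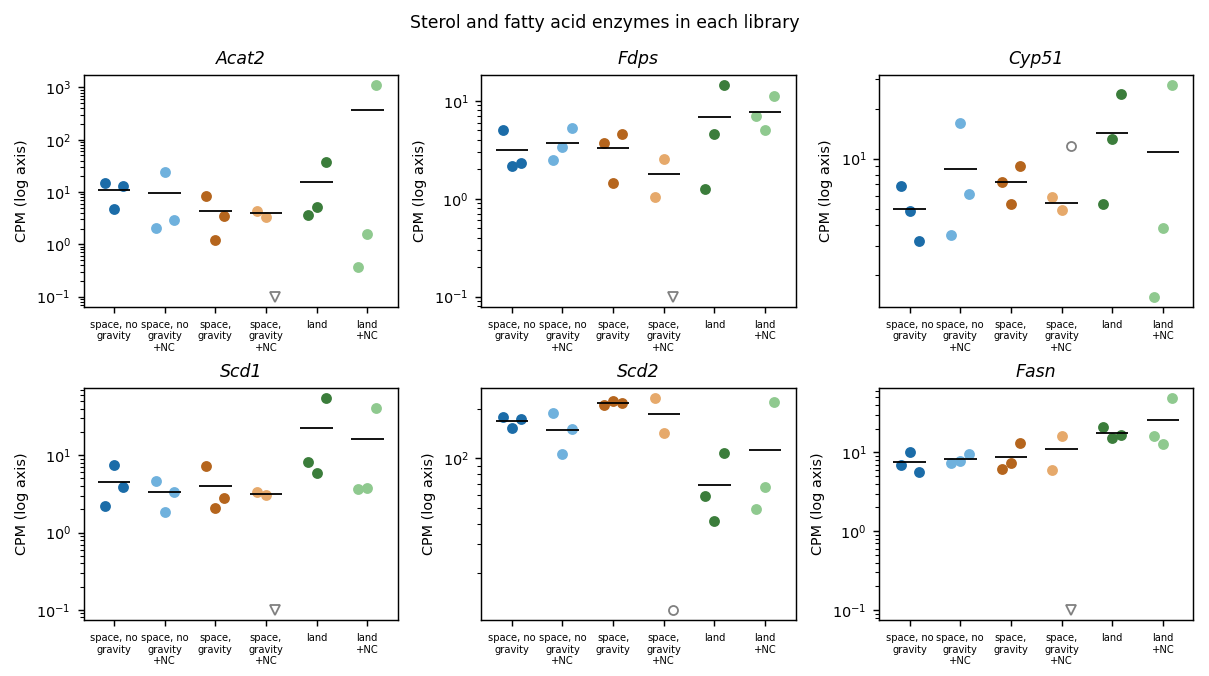
Points are single libraries of the 6 groups (NC, nanoceria) on a log CPM axis, with lines at means without the smallest library, drawn as an open grey symbol (a triangle near the foot of the axis for a count of 0). Scd1 of the replicate 3 land libraries (54.2 and 41.3 CPM) and Acat2 of land nanoceria replicate 3 (1109.6 CPM) stand above all others, while Scd2 is at 143 CPM or more in the 5 deeper space with gravity libraries.

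**Figure D3:**
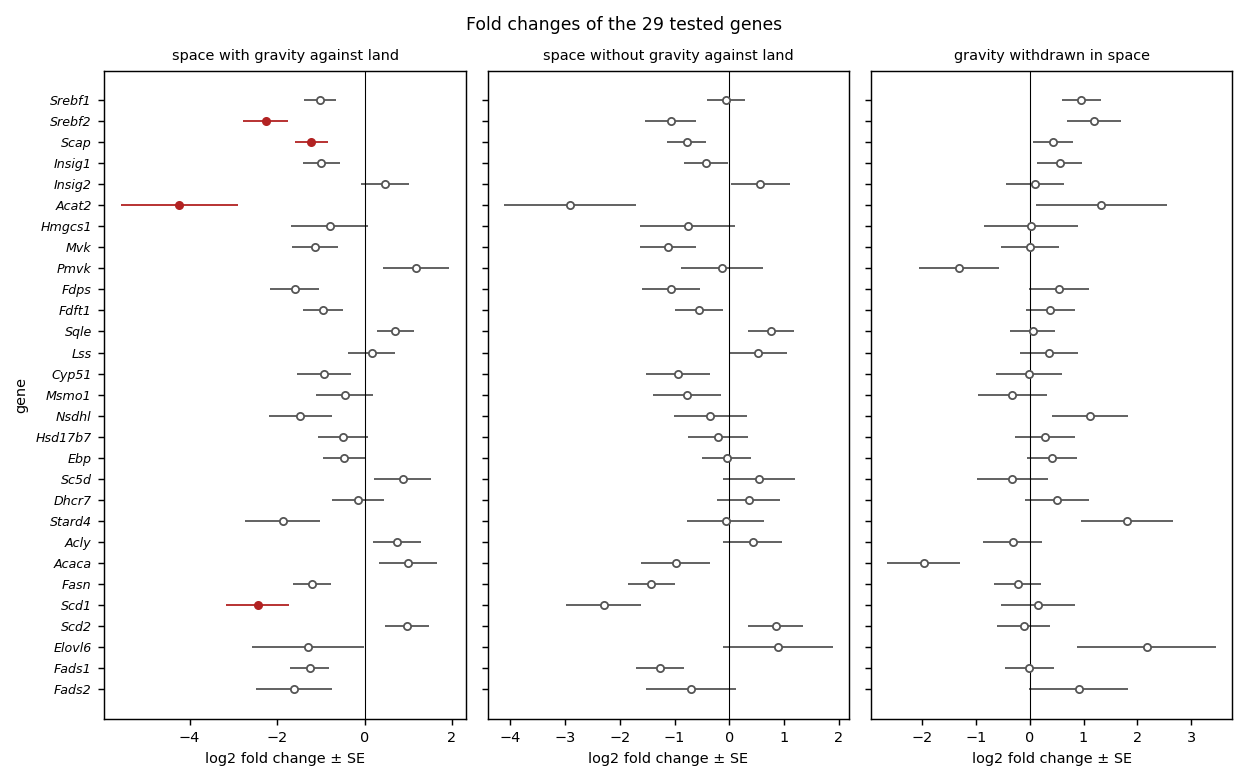
Each point is the log2 fold change of a gene with its SE in 3 comparisons, and filled red points passed the adjusted threshold of 0.05 in edgeR. The 4 filled points all belong to space with gravity against land and lie below 0.

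The replicate 3 libraries of both land groups weighed on much of this comparison. Replicate numbers follow only the order of records, so the shared number does not pair them. Untreated land replicate 3 had the highest level of the 17 for 7 of 29 genes (24.1%, against 8.12% of all genes tested): Insig1, Insig2, Mvk, Fdps, Hsd17b7, Ebp and Scd1. Land nanoceria replicate 3 had it for 8 of 29 (27.6%, against 13.8%): Srebf2, Acat2, Hmgcs1, Fdft1, Cyp51, Nsdhl, Stard4 and Fasn. The 31 genes summed to 5337 CPM, counted outside the 6 dominant genes, in land nanoceria replicate 3 and to 2506 in untreated land replicate 3, against 702 to 1960 in the other 15 deeper libraries. In land nanoceria replicate 3, Acat2 and Hmgcs1 held 5122 of the 7438 counts of the 31 genes. Without these 2 genes its sum was 1662 CPM, within the 689 to 1834 of the other 15, and that of untreated land replicate 3 was 2169.

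With both of these libraries left out, a choice made after seeing the data, 5 of 29 genes passed in space with gravity against land, and 1193 genes (9.76%) in all. Srebf2 (−1.86, edgeR adjusted p = 0.0346) and Srebf1 (−1.22, edgeR adjusted p = 0.0448) fell. Hmgcs1 (+2.37, edgeR adjusted p = 0.0290), Pmvk (+2.95, edgeR adjusted p = 0.0290) and Scd2 (+1.71, edgeR adjusted p = 0.0456) rose. Scap kept its size at −1.25 but not its call (edgeR adjusted p = 0.0510), and Scd1 stood at −0.53 and Acat2 at +0.91, neither past the threshold. Srebf2 was thus the gene called both with and without these libraries.

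**Figure D4:**
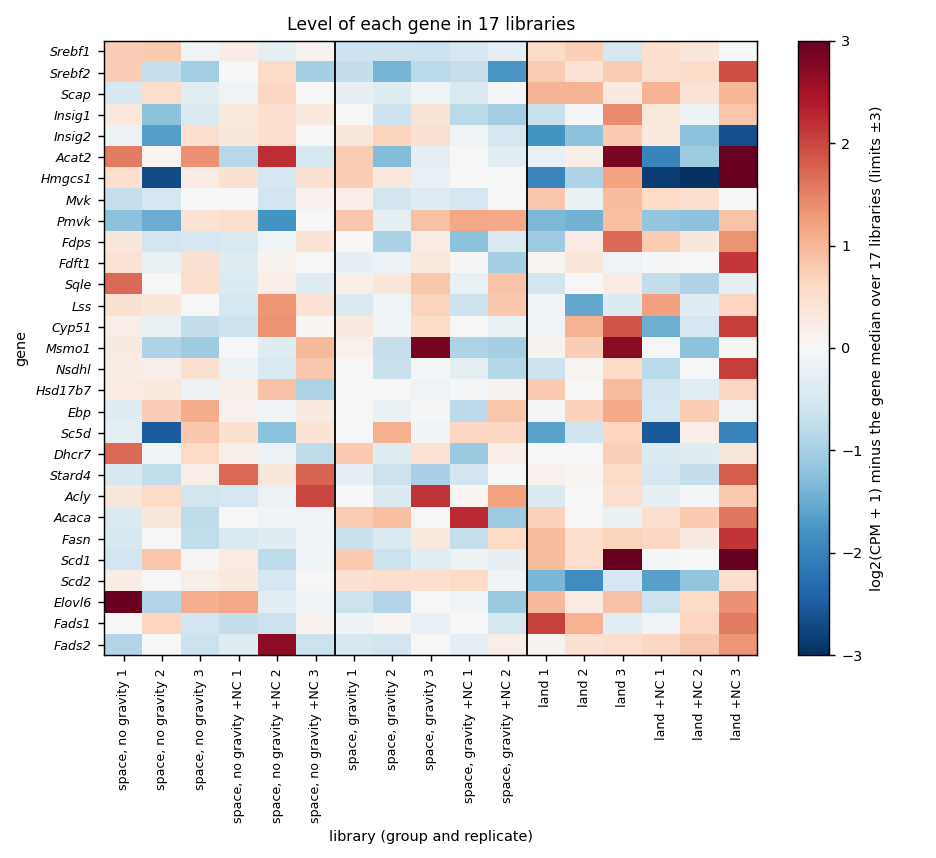
Rows are the 29 tested genes, columns the 17 deeper libraries (NC, nanoceria), and colour is log2(CPM + 1) minus the gene's median, limited at ±3. The columns land 3 and land +NC 3 hold the darkest red cells of Acat2 and Scd1, and land +NC 3 that of Hmgcs1.

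**Figure D5:**
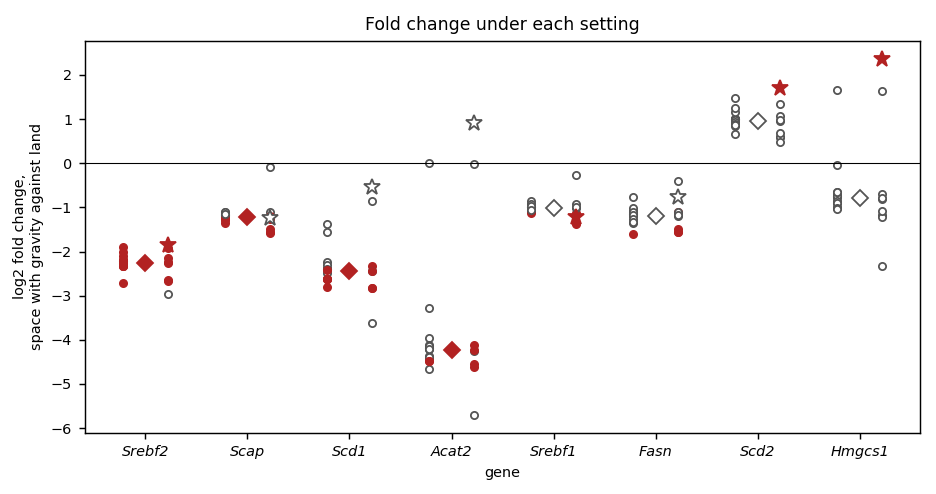
For 8 genes, the log2 fold change of space with gravity against land is shown for the fit of all libraries (diamond), fits with a library left out (circles to the left), and other settings (circles to the right; star, both replicate 3 land libraries left out). Filled red symbols passed the adjusted threshold, which Srebf2 did under all but 1 of the settings drawn for it.

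Space without gravity was compared with the same land libraries, so the comparisons share those libraries. None of the 29 genes passed in edgeR, where 5.25% of all genes did. DESeq2 called 3 (Scd1, Fasn and Fads1, all lower), where it called 13.2% of all genes. With voom 3 were called (Scap and Fasn lower, Scd2 higher), where 8.56% of all genes were. At an unadjusted p under 0.05 in edgeR there were 7 of 29, all lower, against 24.7% of all genes, or 12.5% counting lower ones. Scd1 had 2.21, 7.38 and 3.92 CPM untreated and 4.66, 1.86 and 3.39 with nanoceria (−2.29 ± 0.68, edgeR adjusted p = 0.0569). Fasn had 7.02, 10.2 and 5.70 CPM untreated and 7.28, 7.80 and 9.48 with nanoceria, all below its 20.8, 15.1 and 16.8 on untreated land and 16.3, 12.6 and 48.5 on land with nanoceria. It was the 1 gene of 29 whose sides did not overlap, against 2.91% of all genes (−1.42 ± 0.43, edgeR adjusted p = 0.0582). Fads1 had 9.43, 14.9 and 5.88 CPM untreated and 5.24, 5.57 and 9.99 with nanoceria, against 41.4, 20.2 and 7.23 on untreated land and 8.51, 15.0 and 29.3 with nanoceria. Its ranges overlapped (−1.26 ± 0.43, edgeR adjusted p = 0.0866). Side by side with space with gravity, Srebf2 stood at −1.07 against −2.26, Scap at −0.78 against −1.22 and Srebf1 at −0.06 against −1.02.

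Within space, no gene of the 29 and none of the 11558 passed between libraries without and with gravity in edgeR (0%), and DESeq2 and voom also called 0 of the 29, where they called 0.0952% and 0% of all genes. At an unadjusted p under 0.05 there were 4 of 29, against 5.85% of all genes. Acaca, which makes malonyl-CoA, had 1.80, 3.86 and 1.25 CPM without gravity untreated and 2.77, 2.60 and 2.54 with nanoceria, against 5.42, 6.10, 2.80, 16.9 and 0.797 with gravity (−1.97 ± 0.67, edgeR adjusted p = 0.660). The ranges overlapped, and the smallest library, with 71.5 CPM, entered this fit. Srebf1 had 13.6, 14.3 and 7.13 CPM without gravity untreated and 9.32, 6.31 and 8.46 with nanoceria. All 6 lay above the 5 with gravity, the highest of which had 6.22. It was the 1 gene of 29 without overlap, against 0.658% of all genes (+0.96 ± 0.37, edgeR adjusted p = 0.732). Srebf2 without gravity spread from 3.21 to 13.6 CPM: 13.6, 4.36 and 3.21 untreated and 7.72, 11.9 and 3.39 with nanoceria (+1.19 ± 0.49, edgeR adjusted p = 0.766). Scap had 9.63, 20.5 and 10.9 CPM without gravity untreated and 12.5, 21.9 and 13.9 with nanoceria, which overlapped both other regimes. Insig1 had 51.3, 17.1 and 30.1 CPM untreated and 51.5, 58.7 and 51.1 with nanoceria there, and Insig2 115, 40.4 and 181 untreated and 163, 183 and 128 with nanoceria. Acat2 there ran from 2.04 to 24.1 CPM, Hmgcs1 from 9.23 to 91.9 and Scd2 from 107 to 190.

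For nanoceria averaged over regimes, none of the 29 genes and none of the 11558 passed (0%, edgeR), and DESeq2 and voom also called 0 of the 29, where they called 0.00865% and 0% of all genes. At an unadjusted p under 0.05 there were 3 of 29, against 6.54% of all genes. Msmo1 had 10.8, 4.19 and 3.74 CPM untreated and 8.74, 6.68 and 18.5 with nanoceria in space without gravity. It had 9.80, 5.16 and 71.1 CPM untreated and 4.20 and 3.99 with nanoceria in space with gravity, and 9.69, 15.6 and 63.7 against 8.89, 3.21 and 9.11 on land. The highest libraries were untreated replicate 3 of space with gravity and of land (−1.36 ± 0.53, edgeR adjusted p = 0.752). Fads2, the delta-6 desaturase gene, was at or below 3.58 CPM in 16 of the 17 libraries. Its values were 0, 0.839 and 0.178 untreated against 0.437, 10.8 and 0.169 with nanoceria in space without gravity. They were 0.322, 0.258 and 0.823 against 0.554 and 1.12 in space with gravity, and 0.983, 1.53 and 1.64 against 1.85, 2.20 and 3.58 on land (+1.66 ± 0.70, edgeR adjusted p = 0.752). Dhcr7, the reductase of the last step to cholesterol, had 8.22, 1.68 and 3.21 untreated against 2.18, 1.48 and 0.677 in space without gravity. It had 3.87, 1.20 and 2.80 against 0.317 and 2.23 in space with gravity, and 1.83, 1.79 and 3.61 against 1.11, 1.20 and 2.60 on land (−1.08 ± 0.49, edgeR adjusted p = 0.752). With the regimes pooled, untreated and nanoceria ranges of all 3 genes overlapped. Within single regimes, those of Msmo1 in space with gravity and of Fads2 on land did not, with few libraries a side. The share of all genes without overlap was not computed for these comparisons. None of the 29 passed in the 3 tests of whether effects of regime and nanoceria depend on each other, nor in any of the 9 comparisons of single groups (edgeR), where 0% of all genes did in 7 of the 9, 0.00865% in space with gravity against land among nanoceria libraries, and 0.0433% in space without gravity against land among them. Among single groups, other tests called more, up to 4 of the 29 with DESeq2 and 6 with voom, both in untreated space with gravity against untreated land, where they called 11.0% and 20.6% of all genes.

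Other genes of the pathway, in lists drawn from textbook roles, were read from the same fit of space with gravity against land, where 14.0% of all genes passed. None of 8 genes of SREBP processing and sterol-regulated degradation passed in edgeR, and 1 had an unadjusted p under 0.05. The smallest p there belonged to Erlin1, which takes part in degrading sterol-regulated proteins (+1.38 ± 0.54, edgeR adjusted p = 0.0919). Of 9 genes of sterol uptake, transport and esterification, 3 passed. The sterol carrier gene Osbp (+2.05 ± 0.46) and Soat1, which esterifies cholesterol (+1.82 ± 0.52), rose, and the late endosomal sterol transfer gene Stard3 (−1.71 ± 0.49) fell. Soat1 had 390, 626, 363, 923 and 687 CPM in space with gravity against 101, 116 and 114 on untreated land and 265, 134 and 173 with nanoceria. Its sides did not overlap, and neither did those of Osbp (78.7 to 214 against 15.5 to 44.3 CPM) and Stard3 (0.988 to 2.87 against 4.35 to 8.46 CPM). Among called genes of the lists that follow, the same held for Lpcat3, Fnta, Hsd17b12, Slc25a1, Tecr and Pcyt2. It did not hold for Coq2, Gpam, Acadm and Cebpa. Over all genes tested, 7.82% did the same. Of 4 tested genes linked to the oxysterol receptor LXR, Lpcat3, a phospholipid acyltransferase gene, fell (−2.27 ± 0.49). Of 9 other isoprenoid and sterol genes, the prenyltransferase subunit gene Fnta rose (+1.86 ± 0.39) and Coq2, of coenzyme Q synthesis, fell (−1.38 ± 0.40).

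In fatty acid supply and elongation, 3 of 11 tested genes passed. Hsd17b12, the ketoacyl reductase of elongation, rose (+3.19 ± 0.68), with 274, 329, 103, 184 and 392 CPM in space with gravity against 15.4, 24.8, 29.2, 9.63, 45.9 and 23.1 on land. It also rose in space without gravity against land (+3.04 ± 0.68, edgeR adjusted p = 0.0216). The citrate carrier gene Slc25a1 (−1.62 ± 0.41) and the enoyl reductase gene Tecr (−1.40 ± 0.36) fell. Of 7 glycerolipid genes, the first acyltransferase Gpam rose (+2.36 ± 0.67) and Pcyt2, of phosphatidylethanolamine synthesis, fell (−1.87 ± 0.54). Of 8 fatty acid oxidation genes, the dehydrogenase gene Acadm fell (−2.78 ± 0.76), with 59.1 and 80.4 CPM in the replicate 3 land libraries and 2.20 to 8.95 in the other 4. The members of these lists thus passed in both directions. Of 6 adipocyte markers 2 were tested and 1 fell, Cebpa (−2.04 ± 0.52), whose list summed to 3.29 to 9.09 CPM in space with gravity, 2.97 to 6.21 without and 7.03 to 31.2 on land, with Adipoq and Lep at 0 throughout.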

How the data were processed

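Polyadenylated RNA of 18 libraries was analysed, and 18 small RNA samples were not used here. The authors deposited raw read counts per Ensembl gene, 1 file per library. CASAVA, Trimmomatic 0.36.29, STAR, Subread and featureCounts with GRCm38.p6 are named in the submitters' processing notes, and strand and multi-mapping settings are not given in the sources used here. Symbols came from GENCODE (48970 of 49315 genes matched). Counts were filtered with filterByExpr, scaled by TMM and fitted with edgeR 4.0.16 (R 4.3.3; robust quasi-likelihood test, 6 group means, 12 residual degrees of freedom), with Benjamini-Hochberg adjustment over 11558 genes and a threshold of 0.05. CPM used the same scaling, and SE is the log2 fold change divided by the root of F. The procedure was tested on simulated data, in which only genes with a mean of at least 50 counts were changed. Of the members, 12 reach that mean. Precision is limited by 2986628 to 11378178 counts per library, and by 23858 in the smallest. Alternatives were DESeq2 1.42.0, its size factors, limma 3.58.1 voom, other filters, fewer groups, the dominant genes' share as a term and each library left out. Named genes were the regulators, genes past the threshold, the 3 with the smallest p in each averaged comparison, and, of other lists, those past the threshold or with the smallest p. Members and lists were chosen with earlier results of these data known.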

Additional observations from a re-analysis of the deposited data

How the results depend on the processing

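No paired analysis was possible because replicate numbers follow only the order of records. In space with gravity against land, the count of 4 called genes became 9 with DESeq2 size factors (18.9% of all genes), 9 with DESeq2's test (23.3%), 1 with only the libraries compared (9.65%), 0 with the dominant genes' share as a term (0.00865%), and 1 to 4 with a library left out. With that share as a term Srebf2 stood at −2.97 (edgeR adjusted p = 0.177) and Scap at −0.09 (edgeR adjusted p = 0.990). With DESeq2 size factors the median of all genes was −0.39, and the 9 members called were all lower. In space without gravity against land, the count of 0 became 2 with DESeq2 size factors (7.03% of all genes), 3 with DESeq2's test (13.2%), 3 with voom (8.56%), 2 without a filter (5.82%), 1 with a mean of at least 50 counts (10.0%), 1 with both replicate 3 land libraries left out (Hmgcs1, +2.39; 3.88%), and 0 to 2 with a library left out. Without a filter, 2 genes passed for nanoceria depending on regime (2.19% of all genes) and 1 for space with gravity against land depending on nanoceria (1.06%). In space with gravity against land, signs turned for Acat2 (0.91), Hmgcs1 (2.37), Cyp51 (0.40), Msmo1 (0.31), Hsd17b7 (0.061) and Dhcr7 (0.31) with both replicate 3 land libraries left out. They turned with voom for Hmgcs1 (1.64) and Hsd17b7 (0.040), and with the share as a term for Insig2 (−0.20), Pmvk (−0.64), Sc5d (−0.22), Acaca (−0.15) and Fads2 (0.26). Lss turned to −0.16 with DESeq2 size factors and −0.15 with DESeq2's test. With a library left out, values reached or crossed 0 there for Acat2 (−4.67 to 0.0016), Lss (−0.39 to 0.46), Hmgcs1 (−1.03 to 1.65), Cyp51 (−1.14 to 0.093), Msmo1 (−1.38 to 0.20) and Dhcr7 (−1.04 to 0.25). In space without gravity against land, where edgeR called none of the 29, signs also turned, among them those of Acat2 (2.23), Pmvk (1.63), Stard4 (1.55) and Nsdhl (0.92) with both replicate 3 land libraries left out, of Acat2 (0.79) and Hmgcs1 (1.47) with voom, and of Elovl6 (−2.19) with the share as a term. Apart from the libraries named in each case, the cause was not tested. Of 316 single-gene comparisons under other settings 261 kept direction and call, and of 684 with a library left out 632 did. Most of these were genes not called in the main fit that stayed so. Outside space with gravity against land, they covered only the 3 genes with the smallest p of each averaged comparison. With a library left out, the 4 calls held in 18 of 18 fits (Srebf2), 12 (Scd1), 6 (Scap) and 3 (Acat2). Under other settings they held in 7 of 8 (Srebf2), 4 of 8 (Scd1), 5 of 9 (Scap) and 4 of 9 (Acat2). Single libraries held 10 or fewer counts for many genes. Depth limits Mvk, Pmvk, Nsdhl, Hsd17b7, Dhcr7, Stard4, Elovl6, Fads2 and the untested Mvd and Idi1, among others. Acat2 had 1 and 8 counts in land nanoceria replicates 1 and 2.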
